A study of Mus musculus with 20 samples.

Results

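The clustered protocadherins are cell-surface adhesion proteins of the cadherin superfamily, encoded side by side in an alpha, a beta and a gamma cluster. They were taken by symbol from the deposited gene count tables. The rule names 59 symbols, of which 25 have a row and are described here: 2 alpha rows (Pcdha3 and Pcdha5), 22 beta rows (Pcdhb1 to Pcdhb22) and 1 gamma row (Pcdhga8). The other 34 symbols are not analysed here. The 25 rows are among 34620 gene rows in all, and 25 of 25 passed the filter on low counts that 19192 genes passed.

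In each cluster a long exon with its own promoter encodes the extracellular and membrane-spanning part of 1 isoform. Alpha and gamma isoforms then splice to short exons that all members of the cluster share, while beta genes are single exons with no shared part. Each neuron is known to use only some isoforms, chosen promoter by promoter with the help of the insulator protein CTCF, the cohesin ring and DNA methylation. The proteins bind homophilically, isoform to like isoform, and are known for self-avoidance of the branches of a neuron and for the survival and wiring of neurons.

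The shared exons limit what the alpha and gamma rows can say. A read in an exon shared by several annotated genes is left uncounted as ambiguous by the HTSeq counter, and a read that matches several near-identical copies is left out as not unique. Pcdha5 and Pcdhga8 held far more counts than any other row, and the sources used here do not say whether these rows also hold reads from other members of their cluster. They are therefore read as rows of the alpha and gamma cluster that carry these names, not as single isoforms. The 22 beta rows carry no such doubt, apart from stretches that beta genes share.

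The series holds 20 mouse brain samples, of which the 6 RNA libraries are used and the 14 bisulfite samples are not analysed here. The RNA came from tissue microdissected out of brain cryosections, labelled male, C57BL/6 and wild type, with no treatment and no age given. There is 1 library each of hippocampal precursors (HP), striatal precursors (SP), young hippocampal CA pyramidal neurons (yCA) and young medial spiny neurons (yMSN), and 2 libraries of dorsal medial spiny neurons (dMSN), as the labels spell them. Medium spiny neurons, the usual name, are the projection neurons of the striatum. The labels do not say whether animals were pooled or whether the 2 dMSN libraries came from separate animals. The p-values therefore cover no more than the spread these libraries hold. In the main fits, those of the dMSN comparisons take it from the dMSN pair alone. Those of the stage and lineage comparisons also take it from how far the lineage difference changed between precursor and young. Spread within HP, SP, yCA or yMSN was not measured. An error on a level is given for dMSN alone (SD, n = 2), since every other group is a single library.

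Counts assigned to genes ranged from 31282185 to 36969136 in the 4 single libraries and from 145713678 to 152347673 in the dMSN pair. Levels are CPM, counts divided by library size in units of 1e6 reads, scaled by edgeR's TMM method. A count of 0 allows up to 0.0861 CPM (HP) and 0.0249 (dMSN 1), the CPM worth of 3 counts, and like every interval here this covers counting error only. Some libraries go against their labels. Xist, which coats the inactive X chromosome of females, measured 489 to 1090 CPM in the 4 single libraries. In dMSN it measured 0 to 0.0333 CPM. Together, 3 Y-linked genes had 0 counts in SP and yCA, 672 in HP, 2108 in yMSN and 8258 and 9348 in dMSN. HP and yMSN thus held both Xist and Y-linked transcripts. By these genes, sex differed between libraries that are compared here, and its part in the differences was not tested. The 9 medium spiny neuron markers summed to 6280 and 6300 CPM in dMSN, but to 138 CPM (yMSN) and 147 (yCA), so they do not set yMSN apart from yCA. The 10 skeletal muscle markers summed to 6580 CPM (yCA) and 2410 (yMSN), against 14.4 to 96.7 CPM elsewhere. In bulk tissue, fewer cells of a type and less RNA per cell cannot be told apart.

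**Figure D1:**
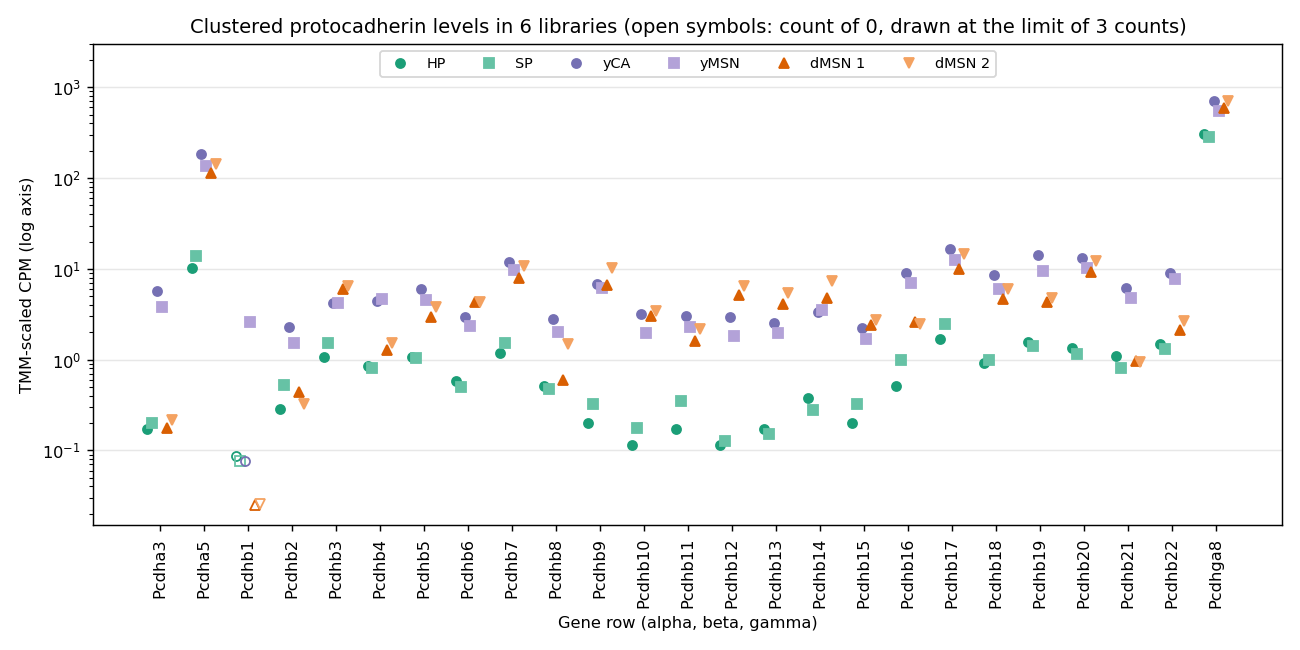
Level of each of the 25 clustered protocadherin rows (x axis) in TMM-scaled CPM on a log axis (y axis), with 1 symbol per library and open symbols at the limit of 3 counts where the count was 0. The young and dMSN symbols of most rows lie above the HP and SP symbols, Pcdha3 is high in the young libraries alone, and Pcdhb1 has counts in yMSN alone.

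The summed rows of each cluster were higher in the later libraries than in precursors, with the alpha sum almost wholly Pcdha5 and the gamma value 1 row. The summed beta level was 15.5 CPM (HP) and 17.2 (SP), 135 (yCA) and 109 (yMSN), and 97.4 ± 17.9 CPM in dMSN (SD, n = 2). The summed alpha level went from 10.5 CPM (HP) and 13.9 (SP) to 192 (yCA) and 141 (yMSN), with 128 ± 21.0 CPM in dMSN (SD, n = 2). The gamma row stood at 307 CPM (HP) and 282 (SP), 708 (yCA) and 542 (yMSN), and 648 ± 71.9 CPM in dMSN (SD, n = 2). The alpha sum thus differed between stages by the most, 18.3-fold from HP to yCA and 10.2-fold from SP to yMSN. The beta sum differed 8.69-fold and 6.30-fold, and the gamma row 2.31-fold and 1.92-fold. The rows are not ranked against each other in level, since no exon lengths of the files' annotation were used here.

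The first comparison set the young libraries against the precursors, with lineage in the model. All 25 rows were called higher in young tissue and 0 lower, by edgeR's quasi-likelihood test with Benjamini-Hochberg adjustment over 19192 genes, where 21.7% of all genes tested were called higher and 13.7% lower. The median log2 change of the members was 2.95, against 0.10 over all genes tested. For 24 of the 25, both young libraries lay above both precursor libraries, as they did for 40% of all genes tested, and the exception was Pcdhb1, described below. Pcdhb1 passed the low-count filter through yMSN alone, and without it 24 of 24 were called. The call held for 24 of 24 members tested without yMSN and for 23 of 25 without yCA, where Pcdhb2 and Pcdhb8 were lost. Without HP, Pcdhb2 was lost, without SP, Pcdhb1 (24 of 25 called in each case), and without dMSN 1 or dMSN 2 the calls of Pcdhb2, Pcdhb3 and Pcdhb8 were lost, which left 22 of 25.

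Among the alpha rows, Pcdha5 stood at 10.3 CPM (HP), 13.7 (SP), 186 (yCA), 137 (yMSN), 113 (dMSN 1) and 143 (dMSN 2). Both precursor libraries were far below the other 4. It rose by 3.75 on the log2 scale from precursor to young (edgeR, adjusted p = 0.00186, SE 0.28). Pcdha3 stood at 0.172 CPM (HP), 0.201 (SP), 5.71 (yCA), 3.80 (yMSN), 0.175 (dMSN 1) and 0.216 (dMSN 2). Its young libraries were high and the other 4 were alike and low, from 6 counts in HP to 25 counts in dMSN 2. The log2 rise was 4.62 (edgeR, adjusted p = 0.00289, SE 0.46). Pcdha3 and Pcdha5 therefore had like changes from precursor to young and unlike levels in dMSN.

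The gamma row had the smallest change of the 25. Pcdhga8 stood at 307 CPM (HP), 282 (SP), 708 (yCA), 542 (yMSN), 597 (dMSN 1) and 699 (dMSN 2). The precursor libraries were again the lowest, but already held 10676 and 11193 counts. It rose by 1.08 on the log2 scale (edgeR, adjusted p = 0.0114, SE 0.19).

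Among the beta genes, 22 of 22 were called higher, and apart from Pcdhb1 their log2 changes ran from 1.74 to 4.62 with a median of 2.91. The largest of these was that of Pcdhb9, which stood at 0.201 CPM (HP), 0.327 (SP), 6.86 (yCA), 6.12 (yMSN), 6.62 (dMSN 1) and 10.2 (dMSN 2). Its precursor levels rest on 7 and 13 counts, and its log2 rise was 4.62 (edgeR, adjusted p = 0.00298, SE 0.46). Pcdhb12 was close, at 0.115 CPM (HP), 0.126 (SP), 2.96 (yCA) and 1.8 (yMSN), a log2 rise of 4.23 (adjusted p = 0.0035, edgeR). At the other end Pcdhb3, with 1.06 CPM (HP), 1.51 (SP), 4.24 (yCA) and 4.24 (yMSN), rose by 1.74 (adjusted p = 0.0140, edgeR). With either dMSN library left out, the adjusted p (edgeR) was 0.0808 to 0.0819 for Pcdhb2 and 0.0681 for Pcdhb3.

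The 3 beta rows with the highest mean CPM over the 5 cell groups, not corrected for length, were Pcdhb17, Pcdhb20 and Pcdhb7. Pcdhb17 had the most counts of any beta row in each of the 6 libraries, at 1.69 CPM (HP), 2.47 (SP), 16.5 (yCA), 12.4 (yMSN), 10 (dMSN 1) and 14.6 (dMSN 2). It rose by 2.80 on the log2 scale. Pcdhb20, at 1.35 CPM (HP), 1.16 (SP), 13.1 (yCA) and 10.2 (yMSN), rose by 3.21. Pcdhb7, at 1.18 CPM (HP), 1.51 (SP), 11.8 (yCA) and 9.83 (yMSN), rose by 3.01. These 3 rose by about as much as the beta median, so the rows with the most counts are not those with the largest changes.

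**Figure D2:**
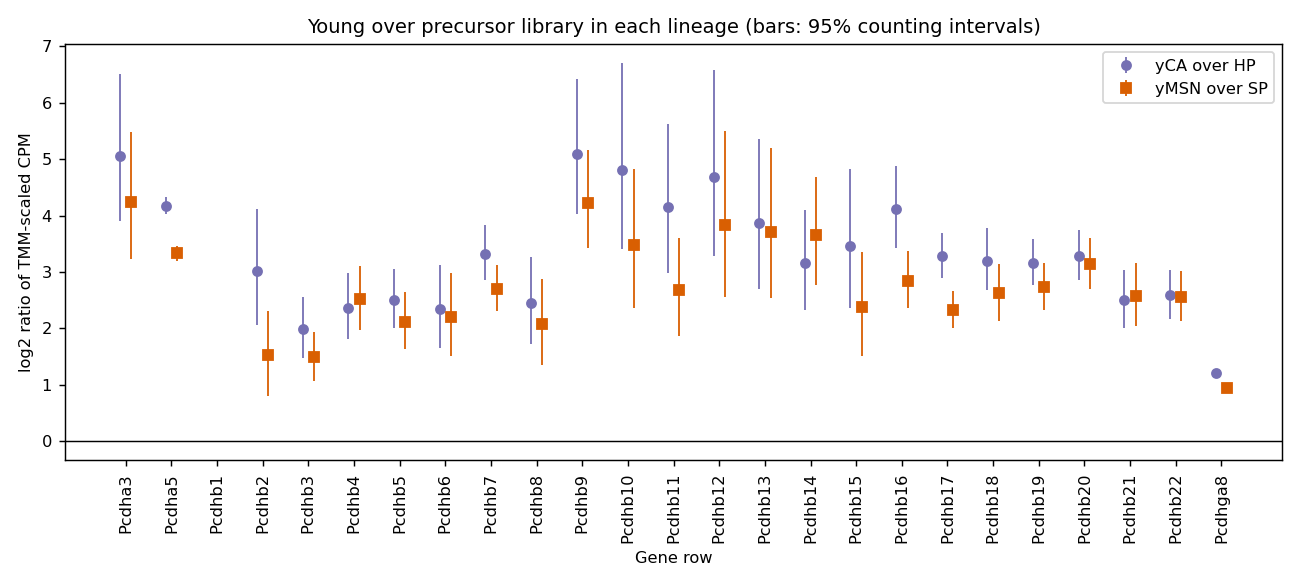
Log2 ratio of TMM-scaled CPM (y axis) of the young over the precursor library for each row (x axis), circles for yCA over HP and squares for yMSN over SP, with 95% intervals that cover counting error only. All 24 rows drawn lie above 0 in both lineages, the gamma row lowest, and Pcdhb1 has no ratio because its precursor counts were 0.

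Each lineage gave the same direction. In yCA over HP, the 95% counting interval lay above 1 for 24 of the 24 members with counts, and the beta folds ran from 3.99 (Pcdhb3) to 34.1 (Pcdhb9) with a median of 9.20. In yMSN over SP it lay above 1 for 25 of 25, and the beta folds ran from 2.80 (Pcdhb3) to 18.7 (Pcdhb9) with a median of 6.17. The same 2 genes stood at the ends of both lists. The members' median log2 ratio was 3.24 in yCA over HP and 2.65 in yMSN over SP, against 0.004 and 0.12 over all genes tested. The share of all genes with an interval above 1 was not computed, so the counts of intervals have no background beside them. These pairs are single libraries with no replicate check.

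Markers of other cells moved with this comparison. Of 8 neuron markers listed, 7 have a row, and they summed to 638 CPM (HP) and 1140 (SP) against 3450 (yCA) and 2460 (yMSN). The 8 markers of radial glia and dividing precursors summed to 4020 and 4970 CPM in the precursors and to 1470 CPM (yCA) and 1630 (yMSN). All 10 skeletal muscle markers were above 3 counts in both young libraries, with the sums given above. The part of these cells in the protocadherin changes was not tested. The list of genes that flank the clusters on chromosome 18 (RefSeq, GRCm38.p6) or lie between them was mixed. Of 9 such genes, 2 were higher and 1 lower, near the 21.7% and 13.7% of all genes, with a median log2 change of -0.06. Rell2 and Fchsd1, both beyond the gamma cluster, rose by 2.98 and 1.04 (adjusted p = 0.00221 and 0.0341, edgeR). Zmat2, just before the alpha cluster, and Diap1 (now Diaph1), just after the gamma cluster, had log2 changes of -0.18 and -0.04 and did not pass, and Taf7, between beta and gamma, fell by 0.64 (adjusted p = 0.0329, edgeR).

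Pcdhb1, the first gene of the beta cluster, behaved unlike the other 24. It had 114 counts in yMSN, or 2.62 CPM, and 0 counts in HP, SP, yCA, dMSN 1 and dMSN 2. Its level in yMSN was at least 34.8-fold higher than in SP, at least 34.0-fold higher than in yCA and at least 101-fold higher than in dMSN 2, taking 3 counts per library as the limit of a count of 0. Its call in young against precursor (adjusted p = 0.0226, edgeR) thus rests on 1 library, and it was lost with DESeq2 (adjusted p = 0.218), limma voom (adjusted p = 0.0697), edgeR with 1 mean per cell group (adjusted p = 1) and without SP (adjusted p = 1). The yMSN library also held transcripts of tissues beside the brain. Omp, a gene of mature olfactory sensory neurons, had 42.9 CPM there and 0.115 to 1.27 CPM in the other libraries. All 7 olfactory epithelium markers were above 3 counts in yMSN and in both dMSN libraries, and 6 of them in yCA. They summed to 309 CPM in yMSN, 201 CPM in yCA, 21 and 22 CPM in the precursors and 462 and 460 CPM in dMSN. Gnal, which the striatum also expresses, made up 145 CPM of the sum in yMSN, 164 CPM in yCA and 391 and 387 CPM in dMSN. The 6 meningeal and fibroblast markers summed to 13600 CPM in yMSN and to at most 1880 CPM elsewhere. The part of such tissue in the Pcdhb1 counts was not tested.

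The second comparison set the striatal against the hippocampal libraries, with stage in the model. None of the 25 passed in edgeR, where 0% of all genes tested were called in either direction, and 1 of 25 had an unadjusted p below 0.05, as did 826 genes of all tested. DESeq2 called 60 genes of all tested, limma voom 0 and edgeR with 1 mean per cell group 356, with 0 of the 25 members in each. Without HP or without SP, Pcdhb1 alone was called, on its yMSN counts. The members' median log2 difference was -0.20, against 0.02 over all genes tested.

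Within the precursor pair the members were spread around equality. In SP over HP, 13 members were higher and 11 lower, and the counting interval spanned 1 for 20 of 24. For these criteria too, the shares of all genes were not computed. The members' median log2 ratio was 0.114, against 0 over all genes tested. Pcdha5 was 1.33-fold higher in SP (95% interval 1.16 to 1.52, counting error only), and Pcdhb16 and Pcdhb17 were 1.90-fold and 1.46-fold higher, with lower bounds of 1.06 and 1.04. Pcdhga8 was the 1 member with an interval below 1, at 0.919-fold (0.895 to 0.944). At 4 to 98 counts per beta row, most differences between the precursor libraries were not detectable at this depth.

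Within the young pair nearly all members were lower in yMSN. In yMSN over yCA, 22 of the 24 members with a ratio were lower, and 16 had an interval below 1. The share of all genes that met either criterion was not computed. The beta folds ran from 0.607 (Pcdhb12) to 1.05 (Pcdhb14) with a median of 0.773, Pcdha5 stood at 0.737-fold (0.712 to 0.763) and Pcdhga8 at 0.766-fold (0.753 to 0.779). The median log2 ratio was -0.38 over the members and 0.01 over all genes tested. The 7 neuron markers were lower as well, at 2460 CPM (yMSN) against 3450 (yCA), and their part in the difference was not tested. Whether the lineage difference changed between the stages was tested with 1 mean per cell group, with the spread taken from the dMSN pair. No member passed, while 5.20% of all genes did (adjusted p = 0.25 for Pcdha5, 0.362 for Pcdhb16 and 0.444 for Pcdhb17, edgeR).

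The third comparison asked which members differ between dMSN and yMSN. The summed levels were close, with dMSN at 0.898 of yMSN for beta, 0.908 for alpha and 1.20 for gamma, but single beta genes went in opposite directions. Of 25 members, 2 were higher (Pcdhb12 and Pcdhb13) and 8 lower (Pcdha3, Pcdhb1, Pcdhb2, Pcdhb4, Pcdhb16, Pcdhb19, Pcdhb21 and Pcdhb22) in edgeR, while 15 did not pass. Among all genes tested 32.1% were higher and 35.4% lower, so the count of lower members is near the background and says little about the members as a set. Pcdhb1 passed the filter only through yMSN, so its direction was given, and without it 7 of 24 were lower. The median log2 change was -0.10 for the members and -0.11 over all genes. The scaling matters for the sums. With no scaling factor the beta sum in dMSN was 0.606 of yMSN, the alpha sum 0.613 and the gamma row 0.806. Marker sums differed as well between yMSN and the dMSN pair. Neuron markers went from 2460 CPM to 7500 and 9290, oligodendrocyte markers from 142 to 8570 and 7290, and astrocyte markers from 552 to 3610 and 3510. Meningeal and fibroblast markers went from 13600 CPM to 84.2 and 83.2, and skeletal muscle markers from 2410 to 96.7 and 96.3. The part of these cells in the protocadherin changes from yMSN to dMSN was not tested.

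Pcdha3 had the largest fall after Pcdhb1. From 3.80 CPM (yMSN) to 0.195 ± 0.0291 CPM in dMSN (SD, n = 2), Pcdha3 fell by 4.27 on the log2 scale (edgeR, adjusted p = 3.12e-06, SE 0.44), close to its 0.201 (SP). The other alpha row, Pcdha5, had 137 CPM in yMSN and a dMSN mean of 128 ± 20.9 CPM (SD, n = 2), and it did not pass (log2 change -0.10, adjusted p = 0.682, edgeR). Pcdhga8 did not pass either (log2 change 0.26, adjusted p = 0.327, edgeR). Without yMSN, where the additive model sets dMSN against yCA through the lineage term, Pcdha5 was called lower (log2 change -0.95, adjusted p = 0.031, edgeR).

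Of the beta genes that fell, Pcdhb21 fell the most after Pcdhb1. Pcdhb21 stood at 6.17 CPM (yCA), 4.81 (yMSN), 0.973 (dMSN 1) and 0.932 (dMSN 2), near its 1.09 (HP) and 0.806 (SP). The log2 change was -2.33 (edgeR, adjusted p = 0.000104, SE 0.36). Pcdhb22, at 8.95 CPM (yCA), 7.74 (yMSN), 2.10 (dMSN 1) and 2.66 (dMSN 2), fell by 1.70 (adjusted p = 0.00054, edgeR). Pcdhb16, at 8.95 CPM (yCA), 7.07 (yMSN), 2.62 (dMSN 1) and 2.47 (dMSN 2), fell by 1.47. For each of these 3 the dMSN libraries lay below both young libraries. Pcdhb2, Pcdhb4 and Pcdhb19 fell by 1.98, 1.73 and 1.04, with adjusted p = 0.00425, 0.00127 and 0.00707 (edgeR).

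The genes that rose were neighbours. Pcdhb12 stood at 2.96 CPM (yCA), 1.8 (yMSN), 5.10 (dMSN 1) and 6.46 (dMSN 2), and rose by 1.69 on the log2 scale (edgeR, adjusted p = 0.00253, SE 0.40). Pcdhb13, the next gene along the chromosome, stood at 2.52 CPM (yCA), 1.98 (yMSN), 4.06 (dMSN 1) and 5.41 (dMSN 2), and rose by 1.26 (edgeR, adjusted p = 0.0161, SE 0.41). Both dMSN libraries were above both young libraries for 6 of 22 beta genes and below them for 9, while 40.9% and 42.4% of all genes tested met these criteria, so neither count exceeds the background. Calls here are sensitive to the tool and the libraries: DESeq2 called 0 higher and 4 lower (Pcdha3, Pcdhb1, Pcdhb21 and Pcdhb22), and without dMSN 1 or without dMSN 2 the calls were 0 higher and 2 lower (Pcdha3 and Pcdhb1). Without yMSN 0 were higher and 7 lower, Pcdha5 among them. The fits with a library left out used the model of lineage and stage, so here the model changed along with the library.

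**Figure D3:**
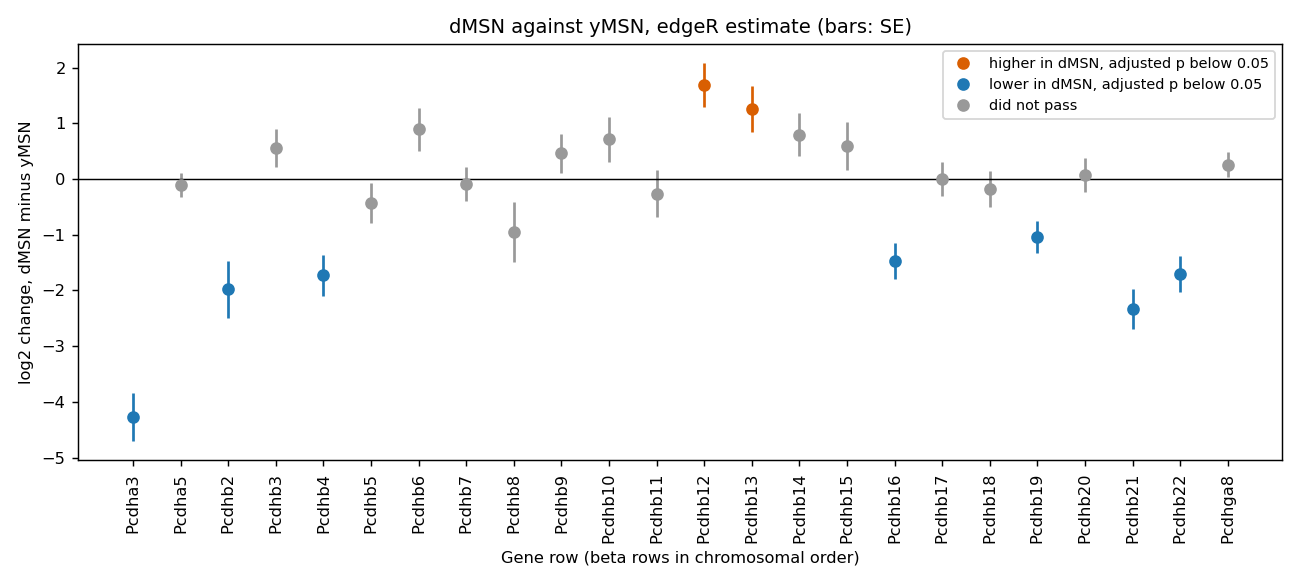
Log2 change of dMSN minus yMSN (y axis) for 24 rows, the beta rows in chromosomal order (x axis), as points with SE bars from edgeR; orange rows were called higher, blue rows lower, and grey rows did not pass. Pcdhb12 and Pcdhb13 rose, Pcdha3 fell by 4.27, and Pcdhb1, with 0 counts in dMSN, is not drawn.

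The changes were also laid out by position along the cluster. With Pcdhb1 aside, the 21 beta genes were divided into 3 runs of 7 neighbours after their values had been seen, so the values are a description with no test. In the middle run, Pcdhb9 to Pcdhb15, the median log2 change was 3.78 from precursor to young and 0.72 from yMSN to dMSN, with 6 of 7 above 0 in the latter. In the first run, Pcdhb2 to Pcdhb8, these medians were 2.28 and -0.43, with 2 of 7 above 0. In the last run, Pcdhb16 to Pcdhb22, they were 2.91 and -1.04, with 1 of 7 above 0. The middle run also had the lowest precursor levels, 0.115 to 0.373 CPM on 4 to 14 counts per library, so its folds from precursor to young are the least precise.

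The beta counts were spread over many genes in every library, and the mixture shifted in dMSN. Shares of the summed beta counts compare a gene with itself across libraries. They are not corrected for length, so longer genes weigh more in the sums and in the effective number below. Pcdhb17 led in all 6 libraries with 10.9% to 14.3% of beta counts. The effective number of beta genes, the exponential of the Shannon entropy of the shares, was 16.2 (HP), 16.5 (SP), 17.2 (yCA), 18.1 (yMSN), 16.8 (dMSN 1) and 16.2 (dMSN 2). The evenness of the mixture therefore differed little between the libraries, while the genes that made it up did change. The run Pcdhb9 to Pcdhb15 held a beta share of 8.69% (HP), 10.1% (SP), 17.9% (yCA), 17.8% (yMSN), 32.5% (dMSN 1) and 34.3% (dMSN 2). The run Pcdhb16 to Pcdhb22 held 52.9% to 56.5% in the 4 single libraries and 39.9% and 39.7% in dMSN. Pcdhb12 went from 1.65% in yMSN to 5.95 ± 0.104% in dMSN (SD, n = 2), and Pcdhb21 from 4.43% to 0.997 ± 0.212%.

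Across the 21 beta genes other than Pcdhb1, shares in yCA and yMSN correlated at r = 0.982 (Spearman 0.965), those in HP and SP at 0.902 (0.916), and those in dMSN 1 and dMSN 2 at 0.983 (0.986). The young libraries correlated with the precursors at 0.820 to 0.849. The dMSN libraries correlated with yMSN at 0.662 and 0.666 with SP at 0.487 and 0.519, and with HP at 0.364 and 0.400. Shares were thus most alike within a stage. These are descriptions across genes that share gene length within each pair of libraries, and the precursor shares rest on 541 and 684 beta counts.

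**Figure D4:**
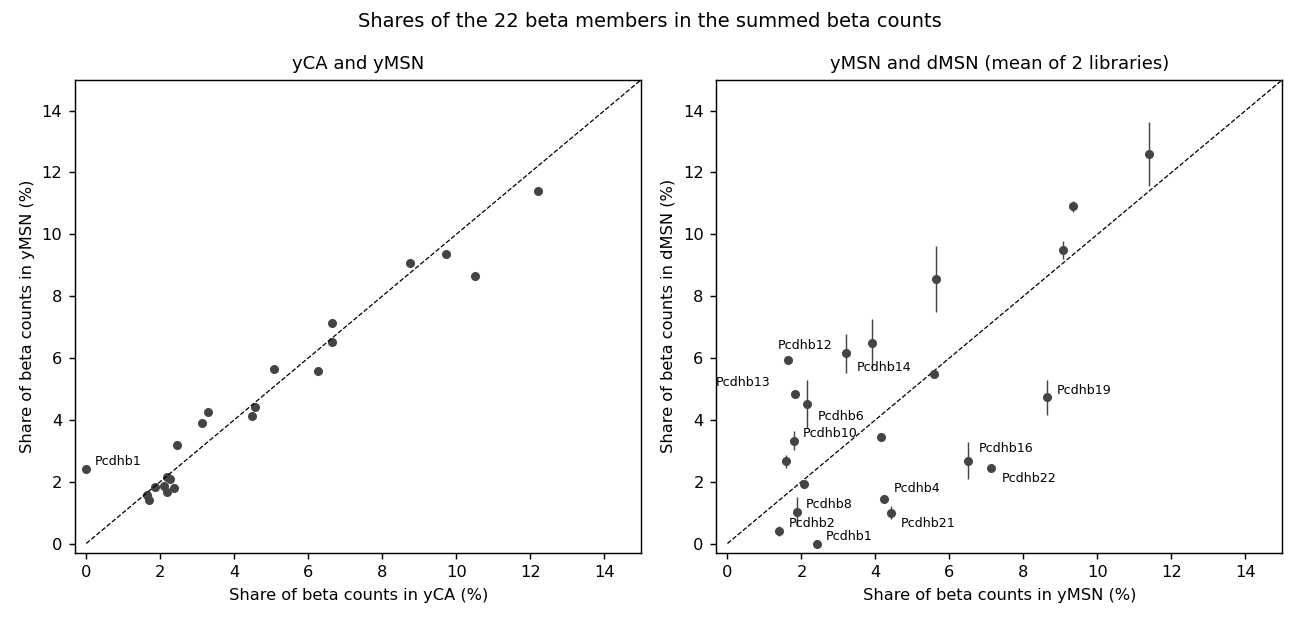
Share of each of the 22 beta genes in the summed beta counts of a library, in percent, yCA against yMSN on the left and yMSN against dMSN on the right (mean of 2 libraries, bars are the SD), with the dashed line at equal shares. The young shares lie along the line apart from Pcdhb1. In dMSN, Pcdhb3, Pcdhb6, Pcdhb9, Pcdhb12, Pcdhb13 and Pcdhb14 are among those above it. Pcdhb2, Pcdhb4, Pcdhb16, Pcdhb19, Pcdhb21 and Pcdhb22 are among those below it.

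The dMSN libraries differed from each other in a common direction for these genes. Of 24 members with counts in dMSN 21 were higher in dMSN 2, with a median ratio of 1.26 and a range of 0.744 (Pcdhb2) to 2.49 (Pcdhb8), while the median over all genes tested was 0.994. Pcdhb8 stood at 0.599 CPM (dMSN 1) and 1.49 (dMSN 2), so its level in dMSN is not well fixed. The 7 neuron markers summed to 7500 CPM (dMSN 1) and 9290 (dMSN 2), the 8 oligodendrocyte markers to 8570 and 7290 CPM, and the 6 choroid plexus markers to 5570 and 4400 CPM. The part of these cells in the difference was not tested.

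The fourth comparison set dMSN against SP and shares the dMSN libraries with the third. Of 25 members, 18 were higher in dMSN and 0 lower in edgeR, where 39.1% of all genes tested were higher and 33.1% lower. The members' median log2 change was 2.32, against 0.20 over all genes. Pcdhb12 had the largest rise, by 5.50 on the log2 scale from 5 counts in SP (edgeR, adjusted p = 2.67e-06, SE 0.58), followed by Pcdhb13 at 4.95 and Pcdhb9 at 4.68. Pcdha5 rose by 3.22, Pcdhb20 by 3.20, Pcdhb7 by 2.62, Pcdhb17 by 2.32 and Pcdhga8 by 1.20. The 7 members that did not pass were Pcdha3, Pcdhb1, Pcdhb2, Pcdhb4, Pcdhb8, Pcdhb21 and Pcdhb22. Of these, Pcdhb2 was the lowest against its precursor level, at 0.441 CPM (dMSN 1) and 0.328 (dMSN 2) against 0.529 (SP). Astrocyte, oligodendrocyte and choroid plexus markers, which summed to 281, 88.2 and 55.0 CPM in SP, summed to 3510 to 3610, 7290 to 8570 and 4400 to 5570 CPM in dMSN, and their part in these differences was not tested.

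Genes that act on the clusters were lower in the later libraries. Of 18 genes for CTCF, cohesin and chromatin control, 0 were higher and 11 lower in young tissue than in precursors, and 0 were higher and 18 lower in dMSN than in yMSN. Over all genes tested 13.7% and 35.4% were lower in these comparisons. Their median log2 changes were -0.64 and -1.47. Ctcf, which binds protocadherin promoters and enhancers, stood at 232 CPM (HP), 227 (SP), 165 (yCA), 136 (yMSN) and 53.7 and 67.9 CPM in dMSN. It fell by 1.17 on the log2 scale from yMSN to dMSN (adjusted p = 0.000323, edgeR), and its change from precursor to young, -0.61, did not pass (adjusted p = 0.0521, edgeR). Dnmt3b, the de novo methyltransferase that methylates silent protocadherin promoters in early development, fell by 2.56 in young tissue and by a further 4.42 in dMSN. The cohesin loader Nipbl, the cohesin-associated Pds5a, Smchd1, which takes part in silencing, and the repressor Rest fell by 2.63, 3.65, 2.09 and 3.31 from yMSN to dMSN. The sum of the 8 radial glia and precursor markers went from 1630 CPM in yMSN to 178 and 172 CPM in dMSN, where 6 fell, Hes5 rose by 1.93 and Sox2 did not pass (log2 change -0.34). Their part in these falls was not tested.

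Partners inside the cell were mixed. Of 16 genes for intracellular partners and processing, 3 were higher and 1 lower in young tissue, and 7 were higher and 2 lower in dMSN than in yMSN. The shares over all genes tested were 21.7% and 13.7% in the former and 32.1% and 35.4% in the latter, so the young counts are at or below the background. Ptk2b, the kinase Pyk2, which protocadherins are known to inhibit, stood at 1.52 CPM (HP), 1.76 (SP), 7.12 (yCA), 10.7 (yMSN) and 751 and 763 CPM in dMSN. It rose by 2.42 in young tissue and by 6.14 in dMSN (adjusted p = 0.00202 and 5.81e-09, edgeR). Its relative Ptk2, the focal adhesion kinase, stood at 104 to 172 CPM in the 6 libraries and did not pass in either comparison. Wasf1 and Cyfip2, of the WAVE complex that drives actin branching, rose by 2.03 and 1.63 in dMSN, and Rock1, a kinase of the cytoskeleton, and Adam10, which sheds protocadherin ectodomains, fell by 1.90 and 1.53.

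Protocadherins outside the clusters followed no single course. Of 13, 7 were higher and 1 lower in young tissue, with a median log2 change of 1.8, and 1 was higher and 7 lower in dMSN than in yMSN, against 21.7% and 13.7%, and 32.1% and 35.4%, of all genes tested. Pcdh11x, Pcdh15 and Pcdh10 rose by 3.53, 3.23 and 2.75 in young tissue, and Pcdh18 fell by 1.41. From yMSN to dMSN Pcdh18 fell by a further 3.65 and Pcdh12, known from endothelium, fell by 6.42, while Pcdh10 rose by 0.51. Cdhr1, on the same list, stood at 82.9 CPM in yMSN and at 1.91 to 8.48 CPM in the other libraries. It fell by 3.66 from yMSN to dMSN, and its change in young tissue did not pass (log2 change 2.83, adjusted p = 0.178, edgeR). The endothelial markers summed to 298 CPM in yMSN and 61.3 and 63.1 CPM in dMSN, and their part in the fall of Pcdh12 was not tested.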

How the data were processed

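The members and gene lists were chosen with earlier results of these data known. The authors deposited unnormalized counts by gene symbol, 1 table per RNA library, each with 5 HTSeq summary lines that were left out of library sizes. The submitters' processing notes list, without roles, the builds mm9 and NCBIM37 and the tools TopHat2 2.0.2, Bowtie 1.0.0, HTSeq and edgeR. The strand setting and annotation release are not given in the sources used here. Per library, 1.38% to 2.01% of aligned reads were ambiguous and 17.3% to 27.3% not unique, and neither kind was counted for any gene. Whether reads of the shared alpha and gamma exons are among them was not tested. Of the 25 symbols 25 matched RefSeq (GRCm38.p6), used for names and gene order only.

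The fits used edgeR 4.0.16 under R 4.3.3, with TMM scaling, filterByExpr, and the quasi-likelihood F test with Benjamini-Hochberg adjustment at 0.05 over 19192 genes. Young against precursor and striatal against hippocampal came from a model of lineage and stage (2 residual degrees of freedom), and the dMSN comparisons from 1 mean per cell group (1 degree of freedom). The SE is the log2 change divided by the square root of F. Single pairs have exact 95% binomial intervals and no test. DESeq2 1.42.0, limma 3.58.1 voom, other scalings, filters and models, and each library left out were alternatives. Fits with a library left out used the model of lineage and stage for every comparison, the dMSN comparisons included. Named members are those with the highest means or largest changes in each cluster, and other called members. Up to 5 genes per related list of at least 1 CPM are named by size of change. The flanking genes, Ctcf, Ptk2, Pcdh10 and the genes at the ends of a range were chosen after their values were seen. The steps were tested on simulated data.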

Additional observations from a re-analysis of the deposited data

How the results depend on the processing

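Of 104 recomputed counts of called members, 95 stayed within 1.5 times the reported count. The 95 include counts of 0 that stayed at 0. Such were the lower members in young against precursor and in dMSN against SP, and most counts in striatal against hippocampal. In the last, edgeR called 0% of all genes tested, so agreement there says little. The counts that moved were in dMSN against yMSN, and the higher members in striatal against hippocampal. In dMSN against yMSN, DESeq2 gave 0 higher and 4 lower in place of 2 and 8. Leaving out single libraries gave 0 to 2 higher and 2 to 8 lower there, and 0 to 1 higher in striatal against hippocampal, where the 1 was Pcdhb1. For Pcdhb1 in young against precursor, leaving out a library gave log2 changes of 0 (without SP) to 10.56, and for Pcdhga8 in dMSN against yMSN of -0.01 (without yMSN) to 0.31. With no scaling factor, dMSN over yMSN was 0.613 for alpha, 0.606 for beta and 0.806 for gamma. With RLE scaling the all-gene median of young against precursor went from 0.10 to -0.02 and the share called from 21.7% higher and 13.7% lower to 19.4% and 17.6%, with 25 of 25 members still higher. Upper quartile scaling moved the median of all genes in dMSN against yMSN from -0.11 to -0.27. The causes were not tested. No paired analysis was possible, since every group but dMSN is a single library and the sample titles pair no samples. At 4 to 98 counts per beta row, precursor depth limits differences between HP and SP.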
